A study of Homo sapiens with 4 samples.

Results

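The combination of aerobic exercise and radiation was compared with the untreated control across genes, with 1 RNA-seq library on each side, 2 of the 4 libraries of the series. The members were the combination library and the control library, joined on gene name. A549 cells, an established human line of lung adenocarcinoma, were grown as flank xenografts in male BALB/c athymic nude mice aged 6 weeks, with 5 mice in each group. Mice of the combination group ran on a treadmill at 8.0 m/min for 30 min, 3 times per week over 2 weeks, and their tumors received 2 Gy of X-rays on the same day after each run. The control group had neither treatment, the exercise group only ran, and the radiation-alone group was only irradiated. All 4 groups share the tumor line and the nude host, which lacks a thymus and most T cells but keeps natural killer and myeloid cells. Whether each library holds 1 tumor or a pool is not given in the study. No group has a second library, so every difference below is a ratio between 2 libraries, with no p-value and no estimate of the spread between tumors.

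Reads assigned to genes came to 34602535 in control and 33432637 in the combination, against 34304760 with exercise and 35408705 with radiation. Levels are given as CPM, reads of a gene scaled to library size, after TMM scaling, which sets the libraries level on the bulk of genes, and ratios as log2 of CPM with a prior of 0.5 counts. Each fold has an exact 95% interval (Clopper-Pearson), which covers counting error only. The tumor line was checked by 10 marker genes, all compared, of which 6 had a log2 ratio above 0 and 5 with total-count scaling. KRT8, a keratin of simple epithelium, stood at 3409 CPM in control, 3192 after exercise, 3236 after radiation and 3841 after both, so the epithelial identity was plain in each library. TOP2A, a topoisomerase of dividing cells, was the only marker past 2-fold (log2 ratio −1.03).

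Ionizing radiation breaks DNA and stabilizes the transcription factor p53, which is intact in A549 cells. p53 raises genes for cell cycle arrest, for its own feedback and for cell death, and through the CDK inhibitor p21 it lets the DREAM complex and the RB family hold cell cycle genes down. Irradiated tumor cells are also known to induce interferon-stimulated genes and MHC class I, while exercise is studied for its effect on tumor blood flow and oxygen supply, which acts on genes through the hypoxia-inducible factors.

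Of 38137 genes in the files, 19393 averaged at least 20 reads in the 4 libraries and were compared, and of these 441 were at least 2-fold higher in the combination than in control (2.27%) and 343 were at least 2-fold lower (1.77%). Most genes lay close together in these libraries: 87.3% differed by less than 1.5-fold, and the median log2 ratio was −0.015 with quartiles of −0.22 and 0.19. A log2 ratio above 0 was seen for 47.8% of genes. The shares of 2.27% and 1.77% are those to set beside each list count below. At these shares a short list would often hold 0 members past 2-fold. Of the genes past 2-fold, 56.2% were higher with TMM scaling and 45.4% with total-count scaling, which lowers every log2 ratio by about 0.075. Counting error left 205 of the higher genes with a lower limit of at least 2-fold, and 44 of the lower genes. Set beside the same control library, exercise alone had 161 genes higher (0.830%) and 136 lower (0.701%), and radiation alone 366 higher (1.89%) and 174 lower (0.897%). The 3 comparisons share 1 control library and are not independent of each other.

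**Figure D1:**
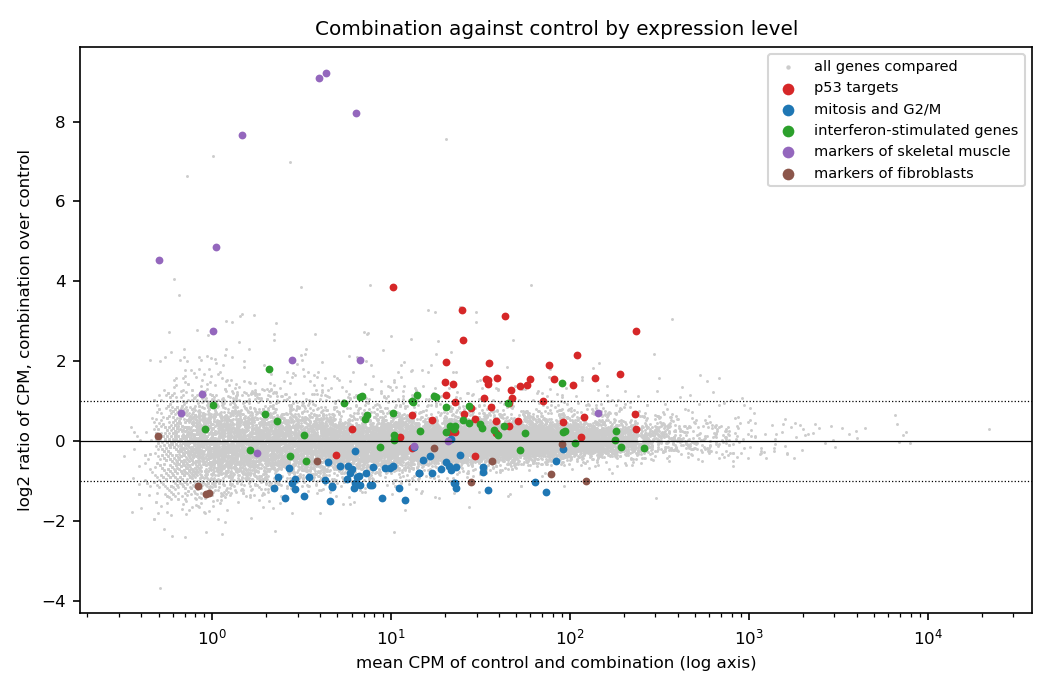
Log2 ratio of CPM, combination over control (y axis), against the mean CPM of both libraries (x axis, log scale) for the 19393 genes compared; each point is 1 gene, the solid line marks no difference and the dotted lines 2-fold. p53 targets lie mostly above 0, mitosis genes below 0, and a few muscle genes of low level stand far above all others.

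Among the lists of known function, target genes of p53 had the most members past 2-fold on the higher side. Of 51 compared, 26 were at least 2-fold higher, 0 were lower, and 48 had a log2 ratio above 0 with either scaling, with a median of 1.08 against −0.015 over all genes. The list's median was 0.03 with exercise alone and 0.85 with radiation alone. CDKN1A, which encodes p21, measured 60.6 CPM in control, 79.6 after exercise, 327 after radiation and 408 after both. BTG2, an antiproliferative factor, stood in the same order at 17.3 CPM in control, 19.7 after exercise, 47.6 after radiation and 50.8 after both. SESN1, a sestrin that restrains growth signalling, did not, since its 9.23 CPM after exercise lay below the 10.5 of control, against 25.9 after radiation and 29.2 after both. The arrest role had 7 of 10 members past 2-fold, all 10 above 0 and a median of 1.27. Among the feedback genes, 3 of 6 passed 2-fold. MDM2, the ubiquitin ligase that degrades p53, measured 91.0 CPM in control, 83.7 after exercise, 272 after radiation and 290 after both.

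Death genes of the p53 list were more mixed, with 7 of 15 at least 2-fold higher and a median of 0.84. FAS, a death receptor, was 5.76-fold higher (5.05 to 6.59), with 7.42 CPM in control, 7.84 after exercise, 35.7 after radiation and 42.7 after both. BAX, which opens the outer mitochondrial membrane, was 2.93-fold higher (2.76 to 3.11). BBC3, the BH3-only protein PUMA, was 2.12-fold higher (1.94 to 2.31). PMAIP1, the BH3-only protein NOXA, stood at 10.9 CPM in control and 11.5 in the combination, an interval of 0.919 to 1.23 that includes no difference. TP53I3 was also near control at 1.06-fold. The decoy receptor TNFRSF10C, which binds the death ligand TRAIL without signalling, had a log2 ratio of −0.36. Members of the list thus ranged from −0.39 for NOTCH1 to 3.85 for PTCHD4.

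Metabolic and mitochondrial targets of p53 had the highest median of the list's roles, 1.35, with 5 of 8 past 2-fold. SPATA18, which takes part in mitochondrial quality control, measured 4.59 CPM in control, 3.85 after exercise, 54.1 after radiation and 44.9 after both. FDXR, a ferredoxin reductase, was 2.89-fold higher (2.64 to 3.17). TIGAR, which lowers glycolytic flux, was 2.44-fold higher (2.26 to 2.63). GLS2, a glutaminase, was on the other side of 0, at 13.8 CPM in control and 12.2 in the combination. PTCHD4, a patched-like membrane protein, had the largest fold of the list at 14.6 (10.8 to 20), with 1.32 CPM in control, 1.10 after exercise, 25.5 after radiation and 19.2 after both. For PTCHD4 and SPATA18 the radiation-alone library was the highest of the 4, and for CDKN1A, FAS and MDM2 it was the combination library. DDB2, a sensor of damaged DNA, was the only one of 5 repair targets past 2-fold, at 3.71-fold (3.48 to 3.97). Among noncoding genes, MIR34AHG, the host transcript of miR-34a, was 2.50-fold higher (2.28 to 2.75), and PURPL, a repressor of basal p53, was 2.40-fold higher (2.3 to 2.51). A list of damage-responsive and abundant long noncoding RNAs stayed near control as a whole. Of its 21 genes compared, 2 were at least 2-fold higher, 0 were lower and 11 lay above 0 (median 0.02).

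Genes of mitosis and G2/M had the most members past 2-fold on the lower side among these lists, 22 of 58, with 0 higher and a median log2 ratio of −0.85. With TMM scaling 57 of the 58 lay below 0, SPC25 being the exception at 0.04, and with total counts all 58 did. Sequences are shown because these genes share promoter elements that the list was not chosen by. RefSeq promoter windows (GRCh38.p14, 300 bases around the start) were found for 49 members, and 31 of them (63.3%) held both CCAAT and the CHR element TTTGAA or TTCGAA, counted on either strand, against 6.58% of all 27305 windows. The CHR element alone was in 75.5% of these windows and in 16.6% of all. A match is only a match of letters, and motif shares here and below are of whole lists, not split by ratio. Capitals mark both elements in CDC20 (chr1:43358731-43359030, plus strand), KIF18B (chr17:44947724-44948023, minus strand) and MKI67 (chr10:128126374-128126673, minus strand), which were among the members with the lowest ratios:
CDC20: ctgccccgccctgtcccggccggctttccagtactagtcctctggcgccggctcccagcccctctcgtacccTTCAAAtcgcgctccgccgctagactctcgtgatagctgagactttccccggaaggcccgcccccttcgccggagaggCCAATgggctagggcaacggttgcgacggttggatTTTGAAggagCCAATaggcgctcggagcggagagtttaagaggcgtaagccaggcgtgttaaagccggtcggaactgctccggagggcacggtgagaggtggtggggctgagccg
KIF18B: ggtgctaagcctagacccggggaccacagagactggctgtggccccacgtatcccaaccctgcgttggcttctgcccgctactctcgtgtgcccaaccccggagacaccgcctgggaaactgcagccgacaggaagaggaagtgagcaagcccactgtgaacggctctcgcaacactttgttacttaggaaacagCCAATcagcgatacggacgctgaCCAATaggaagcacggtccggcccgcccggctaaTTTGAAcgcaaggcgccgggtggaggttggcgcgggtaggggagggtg
MKI67: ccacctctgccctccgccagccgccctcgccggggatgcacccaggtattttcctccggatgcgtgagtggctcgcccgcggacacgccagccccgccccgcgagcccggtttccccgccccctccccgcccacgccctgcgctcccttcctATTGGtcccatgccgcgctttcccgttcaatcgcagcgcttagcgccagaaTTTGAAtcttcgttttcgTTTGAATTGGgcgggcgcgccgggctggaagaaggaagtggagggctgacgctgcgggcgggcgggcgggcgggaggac

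By role, spindle and cytokinesis genes had 10 of 20 members at least 2-fold lower (median −1.01) and anaphase and transcription genes 5 of 9 (median −1.03). Kinetochore and centromere genes had 5 of 13 (median −0.96). Mitotic kinases and cyclins stood nearer to control, with 2 of 16 past 2-fold and a median of −0.64. MKI67, the Ki-67 antigen of cycling cells, measured 104 CPM in control, 174 after exercise, 49.0 after radiation and 42.7 after both, 2.42-fold lower than control (2.28 to 2.58). CDC20, the activator of the anaphase-promoting complex, measured 3.70 CPM in control, 6.51 after exercise, 1.58 after radiation and 1.37 after both. KIF18B, a spindle kinesin, was 2.80-fold lower (2.39 to 3.29). Both libraries from irradiated tumors were below control for these 3 genes, and the exercise library was above it. CDK1, the kinase that starts mitosis, was lower by less, at 1.39-fold (1.22 to 1.58). AURKA, a spindle pole kinase, had an interval of 0.980 to 1.28 for control over combination, which includes no difference. The list's median was 0.61 with exercise alone and −0.88 with radiation alone.

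Genes of DNA replication and G1/S were lower by less, with 4 of 51 at least 2-fold lower, 0 higher and a median of −0.27. All 16 origin licensing and helicase genes lay below 0 (median −0.37), and CDC45, which activates the replicative helicase, was 2.32-fold lower (1.78 to 3.03). ORC1, E2F2 and E2F8 were the other members past 2-fold. PCNA, the sliding clamp, went the other way, with 61.6 CPM in control, 74.8 after exercise, 71.9 after radiation and 82.6 after both. TYMS, which makes thymidylate, and CCND1, cyclin D1, were each 1.30-fold higher. The CHR element was in 4.76% of 42 windows of this list. In DNA repair, 3 of 43 genes passed 2-fold on the lower side and the list had a median of −0.25: FANCB of crosslink repair at 2.36-fold (1.92 to 2.91), and RAD51AP1 and BLM of homologous recombination at 2.05-fold and 2.02-fold. End joining genes, which act outside S phase too, had a median of 0.01 over 9 genes, or −0.07 with total counts, with 0 past 2-fold. None of 14 markers of arrest and senescence passed 2-fold, on a list that leaves out CDKN1A, which the p53 list holds. With 2.27% of all genes higher and 1.77% lower, a count of 0 among 14 is near the share over all genes. LMNB1, lamin B1, was 1.69-fold lower (1.51 to 1.90), and HMGB2, a chromatin protein, 1.95-fold lower (1.71 to 2.24). GLB1, the lysosomal beta-galactosidase, was 1.62-fold higher (1.56 to 1.68).

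**Figure D2:**
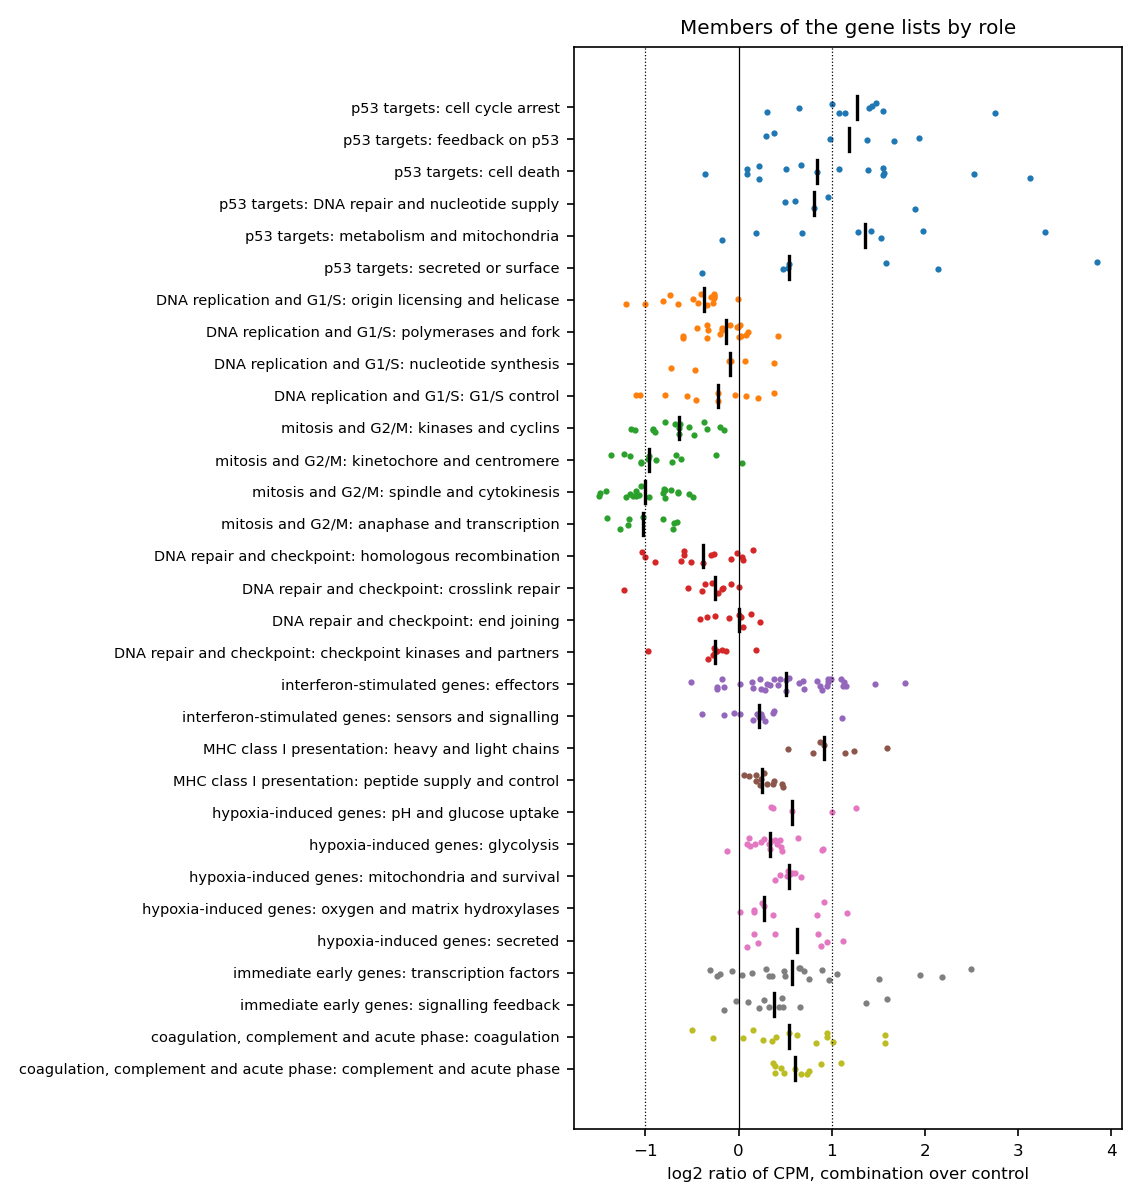
Log2 ratio of CPM, combination over control (x axis), for the members of 9 gene lists split by role (y axis); each point is 1 gene, black bars are medians and dotted lines mark 2-fold. Every role of the p53 list has its median above 0, and the 4 mitosis roles have medians from −0.64 to −1.03.

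Interferon-stimulated genes were higher in the combination: of 48, 7 were at least 2-fold higher, 0 were lower and 40 lay above 0 with TMM scaling, or 38 with total counts (median 0.38). Effectors held 6 of the 7, with a median of 0.51 over 35 genes, and sensors and signalling genes the other, TLR3, with a median of 0.22 over 13. IFI6, which protects infected cells from death, measured 47.8 CPM in control, 11.5 after exercise, 79.0 after radiation and 132 after both. IFI27 measured 11.4, 3.24, 16.8 and 24.4 CPM in the same order. XAF1, a promoter of apoptosis, measured 4.31, 0.868, 7.59 and 9.47 CPM. For all 3 the exercise library was the lowest and the combination the highest. CMPK2, a mitochondrial nucleotide kinase, had the largest ratio of the list at 3.50-fold (2.35 to 5.35), from 33 reads in control against 106 in the combination. IFI44L went the other way, with 3.92 CPM in control, 0.289 after exercise, 3.71 after radiation and 2.75 after both. OAS1, an RNA sensor, was also below control (log2 ratio −0.18). With exercise alone, 13 of the 48 were at least 2-fold lower (median −0.52), and with radiation alone 3 were higher (median 0.30).

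Elements like the interferon response element were spelled here as GAAA, any 2 bases and GAAA on either strand. They were in the RefSeq windows of 25 of 35 interferon-stimulated genes (71.4%) and of 9 of 16 MHC class I genes (56.2%). Over all windows the share was 3.65%, and over those of genes compared 3.08%. The lists were not split by ratio, so these shares describe the lists and not the difference between the libraries. The windows of IFI6 (chr1:27672143-27672442, minus strand) and IFI27 (chr14:94110486-94110785, plus strand) are given, with the matches in capitals, as members past 2-fold that hold more than 1 match:
IFI6: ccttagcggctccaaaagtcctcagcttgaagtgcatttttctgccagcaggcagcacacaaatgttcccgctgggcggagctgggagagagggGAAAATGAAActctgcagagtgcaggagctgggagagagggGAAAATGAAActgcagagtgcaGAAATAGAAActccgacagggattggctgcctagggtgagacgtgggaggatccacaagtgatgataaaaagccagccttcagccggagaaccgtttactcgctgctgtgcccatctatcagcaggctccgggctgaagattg
IFI27: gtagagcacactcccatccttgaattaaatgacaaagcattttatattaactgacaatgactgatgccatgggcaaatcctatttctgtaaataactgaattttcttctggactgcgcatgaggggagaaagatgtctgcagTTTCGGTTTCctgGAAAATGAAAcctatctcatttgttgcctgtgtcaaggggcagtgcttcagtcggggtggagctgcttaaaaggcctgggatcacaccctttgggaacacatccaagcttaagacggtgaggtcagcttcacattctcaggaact

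MHC class I genes, which present peptides to T cells and restrain natural killer cells, all lay above 0 with TMM scaling (19 of 19, and 18 with total counts), with 3 at least 2-fold higher and a median of 0.38. The 7 heavy and light chain genes had a median of 0.92, and the 12 genes of peptide supply 0.26 with none past 2-fold. HLA-B measured 57.7 CPM in control, 43.4 after exercise, 129 after radiation and 175 after both, 3.03-fold higher than control (2.88 to 3.19). HLA-C was 2.37-fold higher (2.3 to 2.44) and B2M, the shared light chain, 2.20-fold (2.15 to 2.25). TAP1, the peptide transporter, was at 1.39-fold (1.27 to 1.52). HLA genes are near-identical in parts, so reads can be split among them and single-gene values are uncertain. Of 19 ligands for natural killer cells and immune checkpoints, 3 were at least 2-fold higher: VTCN1 (B7-H4) at 3.32-fold (2.95 to 3.74), HHLA2 at 2.61-fold (2.24 to 3.06) and ULBP2, a ligand of NKG2D, at 2.20-fold (1.54 to 3.20). CD274, which encodes PD-L1, measured 1.65 CPM in control, 1.97 after exercise, 2.79 after radiation and 2.87 after both. MICB, another NKG2D ligand, had a log2 ratio of −0.38 with an interval that includes no difference.

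TRIM22, an antiviral ubiquitin ligase induced by both interferon and p53, stood apart from its family, with 4.26 CPM in control, 2 after exercise, 40.5 after radiation and 43.9 after both. The other 12 TRIM and APOBEC3 genes compared had 0 members past 2-fold. TRIM25, which activates RIG-I, was 1.51-fold lower (1.44 to 1.59). On a list of 21 compared genes of the TNF superfamily, which is not the whole family, 2 were at least 2-fold higher. TNFSF9, the ligand of the costimulatory receptor 4-1BB, measured 4.79 CPM in control, 5.30 after exercise, 16.6 after radiation and 18 after both. TNFRSF11B, the decoy receptor osteoprotegerin, was 2.64-fold higher (2.03 to 3.48). Members outside that list were also higher: the receptors FAS and EDA2R, held by the p53 list, and the ligand CD70, at 2.65-fold (2 to 3.54). The chemokine CX3CL1 (fractalkine) had the lowest ratio among genes averaging at least 500 reads, at 41.3 CPM in control, 45.1 after exercise, 18.6 after radiation and 13 after both, 3.17-fold lower than control (2.84 to 3.54). Of the other 43 cytokine and secretory phenotype genes, 3 passed 2-fold, all higher: TIMP3, IGFBP6 and TIMP1. None of 13 feedback genes of NF-kappaB did (median −0.04), a count near the share over all genes.

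Immediate early genes, which answer growth factors and stress within minutes, were higher: 7 of 34 passed 2-fold, 0 were lower, and the median was 0.47, against 0.33 with exercise alone and 0.10 with radiation alone. FOS measured 59.8 CPM in control, 144 after exercise, 144 after radiation and 231 after both. FOSB measured 5.52, 19.5, 14.4 and 31.1 CPM in that order. DUSP1, a phosphatase that shuts MAP kinases off, measured 37.8, 86.4, 60.8 and 114 CPM. Each treated library stood above control for these 3 genes, and the combination was the highest. EGR1, a zinc finger factor, stood in the same order as FOSB, at 6.39 CPM in control, 27.4 after exercise, 20.8 after radiation and 29.1 after both. MYC was lower, at 97.9 CPM in control and 79.1 in the combination. ATF3, a stress factor that several pathways induce, was 2.84-fold higher (2.58 to 3.14) and with NUPR1 was 1 of 2 members past 2-fold among 30 genes of the ATF4 and unfolded protein responses (median 0.18). Small heat shock proteins HSPB8, at 2.84-fold (2.52 to 3.20), and CRYAB, at 2.3-fold (2.03 to 2.61), were the 2 of 16 chaperones past 2-fold. The inducible HSPA1A stayed near control, at 417 CPM there and 409 in the combination.

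Hypoxia-induced genes were higher by small amounts and in nearly the whole list: 47 of 48 lay above 0 with TMM scaling and 46 with total counts, with 3 at least 2-fold higher, 0 lower and a median of 0.40. The exception with TMM scaling was PDK3, at −0.12. Radiation alone also had 47 of 48 above 0, with a median of 0.41, and exercise alone had 37 with a median of 0.12. CA9, the carbonic anhydrase that exports acid, measured 38.8 CPM in control, 36.1 after exercise, 69.8 after radiation and 92.6 after both, 2.39-fold higher than control (2.24 to 2.55). EGLN3, an oxygen-sensing hydroxylase, was 2.24-fold higher (2.15 to 2.33) and ADM, the vasodilator adrenomedullin, 2.18-fold (2.05 to 2.31). Glycolytic genes were nearer to control, with a median of 0.34 over 18 genes and 0 past 2-fold. LDHA was at 536 CPM in control and 703 in the combination, and VEGFA at 152 and 175. HIF1A itself, the oxygen-regulated factor, measured 154 CPM in control, 181 after exercise, 218 after radiation and 197 after both. The 10 oxygen-sensing genes had 0 members past 2-fold and a median of 0.02, or −0.05 with total counts. The letters ACGTG, the core to which these factors bind, were in 57.1% of 42 windows of the list. They were in 21.6% of all windows and in 25.2% of those of genes compared. The match was not particular to this list, since 40.8% of the windows of mitosis genes, which were lower, also held it.

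Redox genes stayed near control as a whole. Of 60 genes of the NRF2 pathway, peroxide and superoxide metabolism and glutathione transfer, 1 passed 2-fold, near the share over all genes. The list's median was 0.08, or −0.0001 with total counts. NRF2 is constantly active in A549 cells, and its 31 targets had a median of −0.08. Of 16 peroxide and superoxide enzymes, 14 lay above 0, or 12 with total counts (median 0.28). The 13 glutathione transferases had a median of 0.13. The member past 2-fold was DUOX2, a peroxide-making oxidase of the airway, with 40 reads in control, 36 after exercise, 163 after radiation and 182 after both. SLC7A11, the cystine carrier, was 1.36-fold lower (1.32 to 1.41). GSTO1, an omega glutathione transferase, measured 20.4 CPM in control, 21.4 after exercise, 24.0 after radiation and 25.9 after both, 1.27-fold higher (1.15 to 1.41). GSTM5 had 0 reads in control against 1 in the combination, both within the 3 counts that a count of 0 allows, so no fold is given. SLC25A31, a carrier of adenine nucleotides, had 5 and 8 reads, a ratio of 1.74 (0.503 to 6.78) that was not distinguishable from 1 at this depth. Of 9 candidate components of the permeability transition pore, 0 passed 2-fold (median 0.05, or −0.03 with total counts), a count near the share over all genes.

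**Figure D3:**
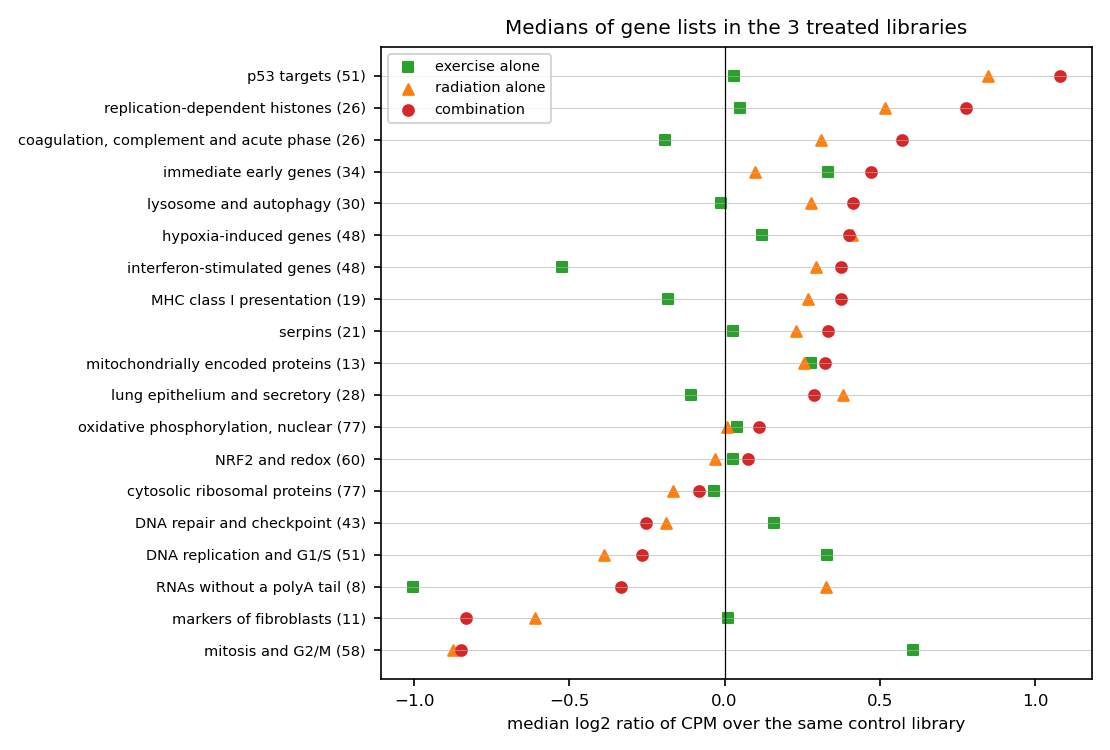
Median log2 ratio of CPM over the control library (x axis) for 19 gene lists (y axis, genes compared in parentheses) for the exercise (squares), radiation-alone (triangles) and combination (circles) libraries, which all share 1 control library. The median of mitosis genes is 0.61 for exercise, −0.88 for radiation and −0.85 for both.

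Secreted proteins of the coagulation and complement systems, which A549 cells make much as liver cells do, were higher: 24 of 26 lay above 0 with TMM scaling and 23 with total counts, with 4 at least 2-fold higher, 0 lower and a median of 0.57, against −0.19 with exercise and 0.31 with radiation. SERPINA1, alpha-1 antitrypsin, measured 341 CPM in control, 283 after exercise, 676 after radiation and 1015 after both, 2.98-fold higher than control (2.92 to 3.04). Coagulation factor F5 was 2.97-fold higher (2.88 to 3.07). The 3 fibrinogen chains, which sit side by side in the genome, stood close together at 2.02-fold for FGA, 1.93-fold for FGG and 1.78-fold for FGB. F3, the tissue factor that starts coagulation, was lower, at 15 CPM in control and 12.4 in the combination. The 10 genes past 2-fold with the largest gains in CPM were FGA, SERPINA1, ALDH3A1, REG4, LTBP1, LINC00486, LGALS3BP, CLU, CST1 and VTN. VTN, vitronectin, measured 235 CPM in control, 174 after exercise, 454 after radiation and 604 after both. REG4, a lectin of mucus-producing cells, measured 79.9, 67.2, 581 and 659 CPM in that order. Of 21 serpins, 5 passed 2-fold, all of them higher, with SERPINA6, the cortisol-binding globulin, at 3.46-fold (3.24 to 3.69).

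Airway secretory genes were higher in part, with 4 of 20 past 2-fold and a median of 0.50. LCN2, an iron-sequestering antimicrobial protein, measured 60.1 CPM in control, 42.2 after exercise, 135 after radiation and 174 after both. PIGR, which carries immunoglobulin across epithelium, was 3.37-fold higher (2.88 to 3.95), and BPIFB1, an airway surface protein, 3.63-fold (3.34 to 3.96). The gel-forming mucins of this tumor stayed at the control level in the combination: MUC5AC measured 8023 CPM in control, 8428 after exercise, 10395 after radiation and 7800 after both. MUC5B measured 6943, 8477, 8874 and 6830 CPM. Of 8 alveolar and lineage genes, LAMP3 passed 2-fold, from 28 reads in control to 73 in the combination. Among 16 genes of cytochrome P450 and conjugation enzymes, 3 were at least 2-fold higher: ALDH3A1, an aldehyde dehydrogenase, at 2.10-fold (2.06 to 2.13), UGT2B7 at 2.06-fold (1.43 to 3.01) and CYP2S1 at 2.04-fold (1.91 to 2.17).

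LTBP1, which holds latent TGF-beta in the matrix (chromosome 2, 32946953 to 33399509), differed in pattern from the genes above: 304 CPM in control, 161 after exercise, 263 after radiation and 865 after both. Its neighbor LINC00486 (chromosome 2, 32825441 to 32842597) measured 259, 111, 211 and 809 CPM. Only the combination library stood above control for both. In reads, LTBP1 had 10847 in control, 5558 after exercise, 9161 after radiation and 28315 after both. LINC00486 had 9235, 3850, 7326 and 26481 reads in that order. The counts of both genes thus moved by nearly the same number of reads from library to library. Whether they share reads was not tested, so they are uncertain as separate genes. LTBP1 was the 1 member past 2-fold among 36 genes of TGF-beta signalling and mesenchymal transition (median 0.10). INHBA, a subunit of activin, was 1.98-fold lower (1.65 to 2.39). KRT17, a keratin of stressed and basal epithelium, had the largest loss in CPM among genes past 2-fold: 441 in control, 884 after exercise, 185 after radiation and 163 after both, 2.71-fold lower than control (2.63 to 2.80). KRT14, KRT6A, KRT6C and KRT5, also basal or wound keratins, were the other 4 of 24 keratins at least 2-fold lower, and KRT222 was the 1 higher. Their reads are in part shared, since KRT14 and KRT17 and the KRT6 genes are near copies. The keratin list as a whole was not lower. Of the 24, 13 lay above 0, or 10 with total counts (median 0.02), and the summed level was 7635 CPM in control and 8012 in the combination. Other lower genes were TINAGL1, a basement membrane protein, at 4.85-fold lower (3.97 to 5.97), and ROS1, a receptor kinase, at 2.46-fold lower (2.20 to 2.76).

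**Figure D4:**
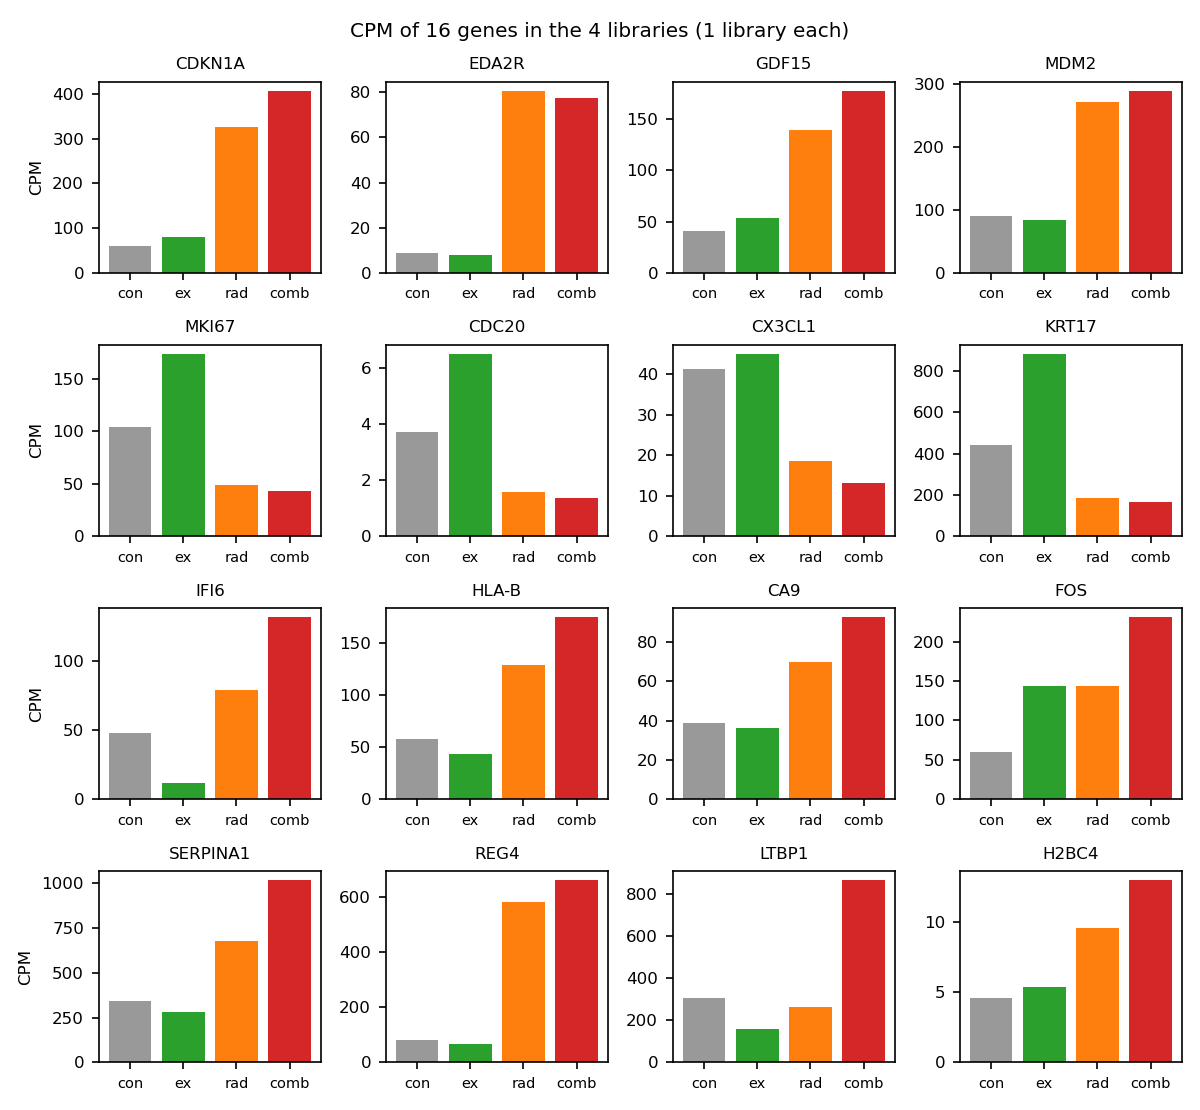
CPM (y axes, from 0) of 16 genes in the control (con), exercise (ex), radiation-alone (rad) and combination (comb) libraries, with 1 bar for each library and no replicates. CDKN1A and EDA2R are high in both irradiated libraries, MKI67 and KRT17 are low in both, and LTBP1 is high in the combination library alone.

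Lysosomal genes were higher by small amounts: all 20 lay above 0 with TMM scaling and 19 with total counts, with a median of 0.56 and 0 past 2-fold. CTSD, cathepsin D, was 1.74-fold higher (1.70 to 1.78). The 10 autophagy genes had a median of 0.24. Of 77 nuclear genes of oxidative phosphorylation, 61 lay above 0 with TMM scaling and 45 with total counts, with a median of 0.11 and 0 past 2-fold. The 13 mitochondrially encoded protein genes all lay above 0 with either scaling (median 0.32), and took 5.42% of reads in control and 6.36% in the combination. Ribosomal proteins lay slightly below, with 17 of 77 above 0 and a median of −0.08. Genes of cholesterol and fatty acid synthesis (29, median 0.12) and of the proteasome (38, median 0.08) had 0 members past 2-fold.

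Replication-dependent histone genes were higher: all 26 compared lay above 0 with TMM scaling and 24 with total counts, with 9 at least 2-fold higher, 0 lower and a median of 0.78. The list has 66 members, and 40 were below the count minimum, so this is no statement on all of them. H2BC4 had 164 reads in control, 187 after exercise, 335 after radiation and 426 after both. H2AC18 had 159, 220, 270 and 357 reads. The fold of H2BC4 had an interval of 2.36 to 3.41, and that of H2AC18 2.03 to 2.97. These transcripts normally end without a polyA tail, and the libraries were selected for one. Of 8 other RNAs without a tail (7SL, 7SK and 18S ribosomal RNA), 2 were at least 2-fold lower and 0 lay above 0. RN7SL2, a 7SL RNA of the signal recognition particle, measured 65.1 CPM in control, 18.9 after exercise, 35.6 after radiation and 24.9 after both. Among 3 genes annotated as small cytoplasmic RNA, 2 were at least 2-fold lower and 1 at least 2-fold higher. The 5 copies of 18S ribosomal RNA, which share reads, had log2 ratios of −0.31 to −0.34. Of 113 small nucleolar RNA genes, 8 were at least 2-fold lower, 0 were higher and 39 lay above 0 (median −0.15). SNORD96A had 99 reads in control against 36 in the combination. Over all genes 1.77% were at least 2-fold lower, and 7.46% of those averaging 20 to 50 reads. Of 263 microRNA genes compared, 11 were higher and 3 lower (median −0.04). MIR6891 lies inside HLA-B and MIR3189 inside GDF15, so their reads cannot be told apart from those of their hosts. The part of RNA capture in these values was not tested.

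Skeletal muscle genes made up the largest folds of the whole comparison. Of 20 markers, 15 averaged enough reads to be compared, and 10 of these were at least 2-fold higher and 0 lower. This count is a description only, since MYH1, MYH2, MYH4, MYH7, CKM and ACTN3, with 0 to 2 control reads, reached the minimum through the libraries where they are high. The median over the 15 was 2.02, but 1.41 with no minimum count and 1.09 with FPKM. Setting genes of 0 control reads at their lower bound could not move this median, since each bound lay above it. MYH4, a fast myosin heavy chain, had 1 read in control, 25 after exercise, 485 after radiation and 417 after both. MYH2 had 0, 14, 183 and 284 reads, at least 103-fold higher than control against a floor of 3 counts. MYH7, the slow myosin, had 0, 2, 7 and 96 reads, at least 34.9-fold higher. MYHAS, an antisense transcript of the cluster, had 7, 96, 1366 and 1313 reads. ACTA1, skeletal actin, had 95, 85, 228 and 354 reads. The control library was the lowest or close to the lowest for each. Both irradiated libraries were high for these genes except MYH7, which was high in the combination library alone. Other muscle markers did not share these folds: TTN stood at 20.7 CPM in both libraries, NEB had a log2 ratio of −0.12, and MB, myoglobin, −0.30. TNNT3, a fast troponin, had 0 reads in control against 1 in the combination. Tumors grew in the flank and reads were matched to human genes, so reads of host muscle and of tumor cells cannot be told apart.

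Markers of other cell types differed in direction. Of 13 fibroblast markers 11 were compared, 10 of which lay below 0, 5 being at least 2-fold lower (median −0.83). Their summed level was 463 CPM in control and 295 in the combination. COL1A1, the main collagen of stroma, measured 164 CPM in control, 161 after exercise, 99.3 after radiation and 81.2 after both, and DCN, decorin, had 49, 40, 27 and 18 reads. COL5A1 stayed near control, at 91.8 and 87.7 CPM. Of 12 endothelial markers 3 were compared, and PECAM1 was 3.32-fold lower (2.81 to 3.93), with 655 reads in control, 484 after exercise, 334 after radiation and 181 after both. EGFL7, a secreted vessel protein, stood on the other side at 1.73-fold higher (1.55 to 1.93), and ESAM, an adhesion molecule, had a log2 ratio of −0.23. The summed level of the endothelial markers was 34.5 CPM in control and 32.3 in the combination. CDH5, VE-cadherin, had 21 reads in control against 16 in the combination. Of 19 macrophage and neutrophil markers 7 were compared and 3 were at least 2-fold higher, and the summed level was 379 CPM in control and 501 in the combination. LYZ, lysozyme, measured 41.8 CPM in control, 40.9 after exercise, 81.8 after radiation and 124 after both, while the defining genes C1QA, C1QB, C1QC and TYROBP had 0 reads in every library and PTPRC, the pan-leukocyte CD45, had 7 in control and 15 in the combination. Of 13 markers of lymphocytes and natural killer cells 5 were compared, and 1 was at least 2-fold higher, CD79A of B cells, from 14 reads in control to 35 in the combination. Their summed level was 6.92 CPM in control and 6.14 in the combination, and CD3E, PRF1 and GZMB had 0 reads in the combination. Of 9 keratinocyte markers 5 were compared, and 2, KRT14 and KRT5, were at least 2-fold lower. The summed level of the keratinocyte markers was 324 CPM in control and 350 in the combination. No erythroid marker reached the count minimum. Reads were matched to human genes, so for these markers too, reads of host cells and of tumor cells cannot be told apart. In such bulk samples fewer cells of a type and less RNA per cell cannot be told apart either.

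TERT, the catalytic subunit of telomerase, had the lowest ratio of all genes compared, with 34 reads in control, 49 after exercise, 4 after radiation and 2 after both. The ratio of control to combination was 15.6, with an interval of 4 to 134 that shows how few reads it rests on. The other 11 genes of telomerase and shelterin had log2 ratios of −0.44 to 0.26. OLR1, a scavenger receptor, had 68 reads in control, 14 after exercise, 6 after radiation and 12 after both. PER3 was the only 1 of 14 clock genes past 2-fold, at 2.48-fold lower (1.53 to 4.15) from 65 reads in control.

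Part of the genes past 2-fold lay beside each other, and how many would do so with random placement was not tested. Of 725 such genes with RefSeq coordinates, 170 (23.4%) were in 75 runs of neighboring compared genes past 2-fold in the same direction. The longest run was the myosin cluster on chromosome 17 (10291819 to 10625540), with 7 genes. This run is a description only, since its genes had 0 to 7 control reads and reached the minimum through the libraries where they are high. In it MYHAS also overlaps MYH8, MYH4, MYH1 and MYH2. Cystatin genes CST4, CST1 and CST2, inhibitors of cysteine proteases in secretions, formed a run on chromosome 20 (23685640 to 23826729). CST1 measured 106 CPM in control, 77.7 after exercise, 424 after radiation and 479 after both. KRT6C, KRT6A and KRT5 formed a run of lower genes on chromosome 12 (52468516 to 52520394), and HLA-C, HLA-B and MIR6891 a run of higher genes on chromosome 6 (31268749 to 31357179). BPIFB2, BPIFA1 and BPIFB1 formed another on chromosome 20. Some of these genes also overlap: 53 pairs of genes past 2-fold overlapped, all in the same direction, with 98 genes among them. The strand setting of the counting is not stated, so overlapping genes, such as GAS6 and GAS6-AS1, may share reads and are uncertain as separate genes.

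The share of genes past 2-fold depended on the number of reads. Among genes averaging 20 to 50 reads, 6.33% were higher and 7.46% lower, while among those with 2000 or more 1.17% were higher and 0.120% lower, or 49 against 5 of 4172 genes. Of the 343 lower genes, 242 averaged under 100 reads, and of the 441 higher genes 217 did. Uncharacterized loci, with symbols of LOC and a number, held 107 of the 343 lower genes and 55 of the 441 higher, of 2428 compared (4.41% and 2.27%). Protein-coding genes made up 324 of the higher genes and 172 of the lower.

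**Figure D5:**
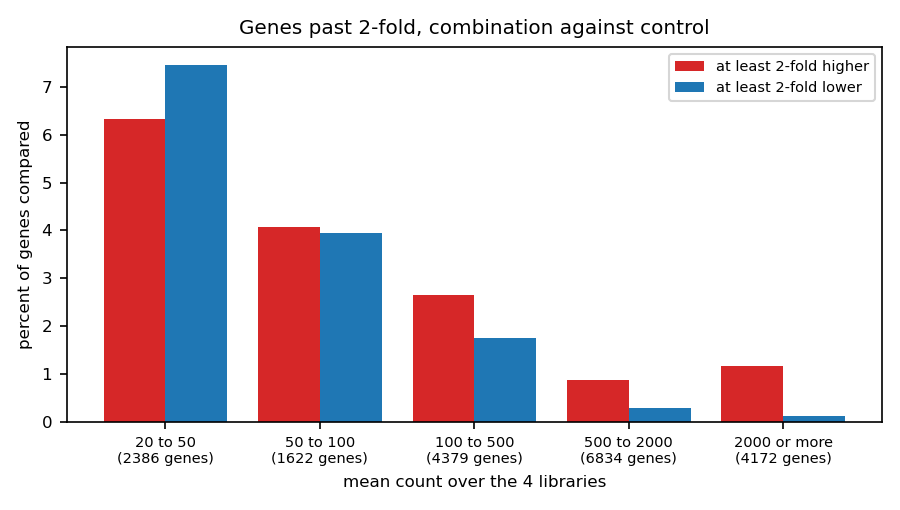
Percent of genes compared (y axis) that were at least 2-fold higher or lower in the combination than in control, by mean count over the 4 libraries (x axis, number of genes in parentheses). The lower share falls from class to class, from 7.46% to 0.120%, while the higher share falls to 0.863% and is 1.17% in the class of most reads.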

How the data were processed

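RNA of A549 xenograft tumors was measured as 1 library per group, and groups were taken from the sample labels. The authors prepared polyA-selected stranded mRNA libraries, read as pairs of 100 nt, and the submitters' processing notes name cutadapt, Bowtie2 2.3.4.1 and featureCounts 1.6.0 with GRCh38. As deposited by the authors, the values are raw read counts for 38137 genes, with FPKM beside them. Not given in the sources used here are the strand setting, how mouse reads were handled, and whether tumors were pooled. Bowtie2 does not align reads across introns, and reads that cross an exon junction can go missing.

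From the deposited counts, CPM were computed with TMM factors (edgeR 4.0.16, R 4.3.3) from genes averaging at least 20 reads in the 4 libraries, and log2 ratios with a prior of 0.5 counts. The study's 2-fold threshold was used, with no test, and a floor of 3 counts stood in for 0 reads. Intervals and floors cover counting error only, and reads without molecular identifiers are not independent molecules. Intervals came from scipy 1.17.1, tables from pandas 2.3.3 and numpy 2.4.6, and figures from matplotlib 3.10.9 (python 3.11.15). The calling step was run on simulated counts with planted 4-fold differences and counting error only. That run checks the computation and cannot speak to the spread between tumors. Coordinates (18354 of 19393 genes matched by symbol) and promoter windows (14071 matched) are from RefSeq, GRCh38.p14. The letters ACGTG were searched in addition to the other motifs after values were seen.

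The comparison and the gene lists were chosen with earlier results of these data known. Genes named are drawn from the 15 highest and 15 lowest ratios, the same among genes averaging at least 500 reads, core members, members past 2-fold where 5 or fewer and otherwise the 4 highest and the 4 lowest of a list, genes the study names, and the 10 largest CPM differences past 2-fold in each direction. The text gives part of these, and other genes are examples chosen after their values were seen. Some genes are not reported here. The alternatives changed the prior (2 or 0.1 counts), the minimum (none or 100 reads), the scaling (total counts or median of ratios), the threshold (4-fold or 1.5-fold) and the unit (FPKM with 0.1 added). Counts without muscle genes and without LOC symbols were added after seeing the data.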

Additional observations from a re-analysis of the deposited data

How the results depend on the processing

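The counts of 441 higher and 343 lower genes moved by less than 1.5 times under priors of 2 and 0.1 counts, both other scalings, and without muscle genes (428 and 343) or LOC symbols (386 and 236), with ranges of 368 to 454 higher and 236 to 442 lower. They moved by more with no minimum count (2988 higher and 3487 lower), a mean count of at least 100 (224 and 101), a 4-fold threshold (76 and 9), a 1.5-fold threshold (1187 and 1270), and FPKM with 0.1 added (160 and 81). The construction of the first 4 alters how many genes are tested or called; for FPKM the cause was not tested. With total counts, 7 list medians near 0 fell on the other side of 0, those of oxygen sensing, redox, the transition pore, EGFR ligands and receptors, the clock, noncoding RNAs and keratins. These except redox did so with FPKM too, oxygen sensing and pericyte markers with no minimum count, and HOX and microRNA genes with a mean of at least 100 reads. Of 236 genes given by the naming rule, 133 with FPKM and 68 with total counts left the counting interval of their fold. Of 57 list medians, 11 with FPKM and 12 with total counts left a 95% rank interval over the list's members. No paired analysis was possible because each group has 1 library, and for the same reason no library could be left out. Depth limits genes of few reads most: the 4008 genes averaging under 100 reads gave 217 of the higher and 242 of the lower calls.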

Other observations

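Of 37 integrin and laminin genes and 35 HOX genes, 0 were past 2-fold in the combination, with medians of −0.09 and −0.07. Among 20 vessel genes, ANGPTL2 was the 1 past 2-fold, at 2.15-fold lower (1.64 to 2.83), and SPP1, osteopontin, had a log2 ratio of 0.89. Among 35 collagen genes, 3 passed 2-fold on the higher side and 3 on the lower. COL10A1, a collagen of cartilage growth plates, measured 11.9 CPM in control, 64.4 after exercise, 15.5 after radiation and 25.8 after both, so that exercise alone was the highest. COL17A1, a collagen of epithelial anchoring, measured 34.2, 28.3, 83.9 and 69.8 CPM in that order.

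Log2 ratios varied with the span of the gene. Among protein-coding genes averaging at least 100 reads, the median was 0.21 for the 204 genes that span under 2000 bases and −0.05 for the 519 that span 300000 bases or more.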
